A study of Ovis aries with 24 samples.

Results

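Genes for the cytosolic ribosomal proteins and for the factors that run translation were followed in cultured pituitary cells of ewes. The genes were taken by name from the count tables: RPL or RPS with a number, RPLP0 to RPLP2 and RPSA for ribosomal proteins, and EIF1 to EIF6 and EEF1 to EEF2 names for factors, without the EIF2AK kinases. This gave 70 of 27054 features, of which 22 were ribosomal protein genes (9 of the large and 13 of the small subunit) and 48 were factor genes. Of all features, 9994 carry no gene name and could not be taken this way, and other ribosomal proteins were not analysed here. Pituitaries came from ovariectomized Western white faced ewes, and every culture, controls included, carried an adenovirus that drives green fluorescent protein (GFP) in gonadotropes, the cells that secrete the gonadotropins. The 4 groups had 6 RNA-seq libraries each: GFP-sorted cells given 10 nM estradiol (E2) for 6 hours, sorted cells given the ethanol vehicle, unsorted cells given E2, and unsorted cells given vehicle. Whether the unsorted cells also went through the sorter is not stated, nor which animals or cultures stand behind a library, so p-values measure the spread between these libraries, which may be technical.

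A ribosome joins a small subunit, which scans the messenger and reads codons, to a large subunit, which forms the peptide bond. Initiation factors bring the start tRNA (eIF2), bind the 5′ cap and unwind the leader (the eIF4 group), bridge messenger and small subunit (eIF3) and check the start codon (eIF1 and eIF1A), and elongation factors then move tRNAs and messenger through the ribosome. In vertebrates the messengers of most ribosomal proteins carry a 5′ terminal pyrimidine tract through which TOR signalling controls their translation, a step that RNA levels do not show.

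Total counts per library, in units of 1e6, were 4.19 to 6.19 for replicate numbers 1 to 3 and 19.2 to 37 for numbers 4 to 6, so each group held 3 libraries of each depth set. Within replicates 1 to 3 the ranges of sorted (4.19 to 6.19) and unsorted libraries (5.03 to 5.98) overlapped, but within replicates 4 to 6 sorted libraries had 19.2 to 22.5 and unsorted ones 32.1 to 37. The labels name no batch, and where the call of a member named below was lost within a depth set, the adjusted p of that set is given. The sort was checked with markers: 5 of 5 gonadotrope markers (CGA, LHB, FSHB, GNRHR, NR5A1) were higher in sorted vehicle cells, with summed levels of 2490 to 5630 CPM (counts scaled to 1e6 per library) in sorted and 292 to 1320 CPM in unsorted vehicle libraries. The 5 markers of other hormone cells were also higher, at 77400 to 207000 CPM in sorted and 45000 to 116000 CPM in unsorted vehicle libraries. All 5 fibroblast and pericyte markers were lower, at 492 to 1200 CPM in sorted and 3410 to 9160 CPM in unsorted libraries, and so were 3 of 3 markers of dividing cells, at 23.9 to 41.1 CPM in sorted and 76.9 to 135 CPM in unsorted libraries. Endothelial markers gave 3 lower of 4, folliculostellate and stem cell markers 2 higher and 2 lower of 4, and immune markers 1 higher and 1 lower of 3. ALAS2, a red blood cell gene, was at 0 in every library of 3 groups. The same counts held in E2-treated cells. In bulk RNA, fewer cells of a type and less RNA per cell cannot be told apart, and the part of this change of cell types in the results below was not tested.

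Ribosomal protein genes were lower in sorted cells. Of 20 that passed the filter on low counts, 15 were lower and 1 was higher in sorted than in unsorted vehicle cells, with a median log2 fold change of -0.57. Over all 14468 features tested the median was 0.0194, and 63.6% passed the test, 32.5% as higher and 31.1% as lower. In E2-treated cells 15 of 20 were lower and 0 higher, with a median of -0.57, where 65.7% of 14545 features passed, 33.9% higher and 31.8% lower. DESeq2 called 1 of 20 higher in E2-treated cells, where it called 33.3% of all features higher, and 16 of 20 had an unadjusted p under 0.05 there. The vehicle and E2 comparisons share no library: 14 of 20 genes were lower in both and 0 were called in opposite directions, where 28.4% of 14341 features were lower in both, 29.2% higher in both and 0.0697% opposite. The test throughout was edgeR's quasi-likelihood F-test with the replicate number as a block and Benjamini-Hochberg adjustment over all features, called at 0.05. Without the block, 13 (vehicle) and 11 (E2) ribosomal protein genes were lower, where 25.8% and 26% of all features were.

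**Figure D1:**
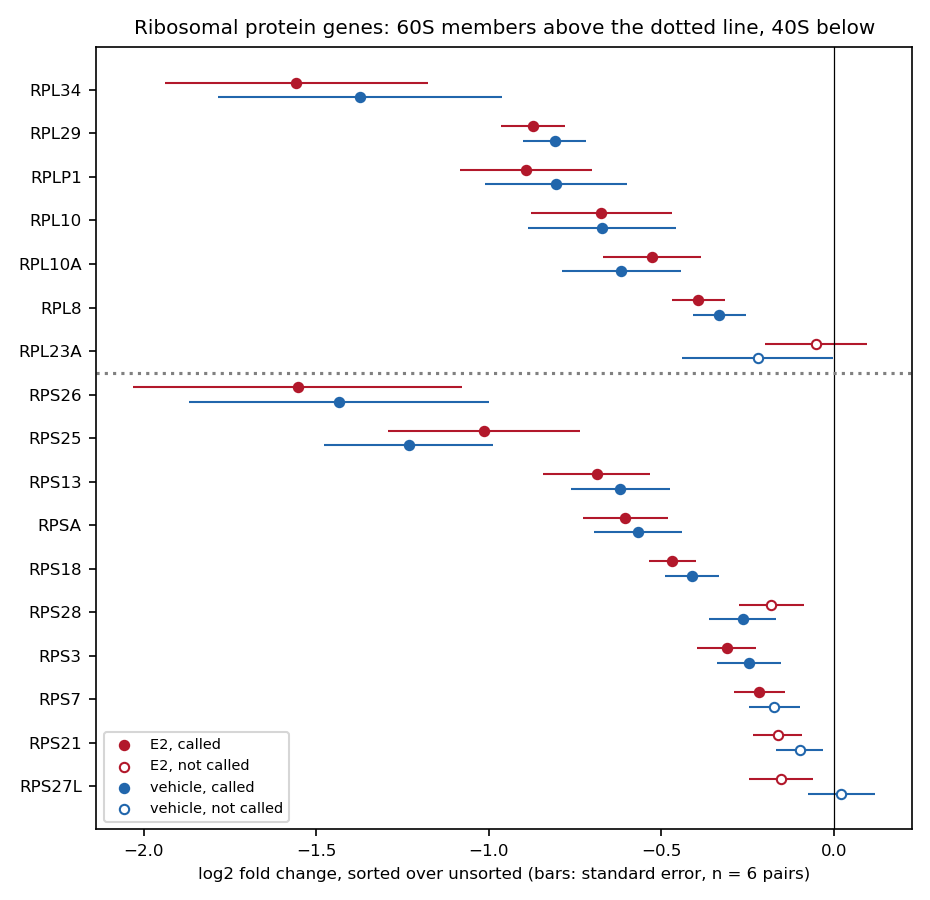
Log2 fold change (horizontal axis, sorted over unsorted) of 17 tested ribosomal protein genes in E2-treated (red) and vehicle-treated (blue) cells. Bars are standard errors over 6 same-numbered pairs, filled points passed the adjusted threshold and open points did not. All but RPS27L in vehicle cells lie left of 0.

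The share of all counts that fell on the 22 ribosomal protein genes taken by name, not on the whole family, was also lower. It was 0.706 ± 0.0465% in sorted E2 and 0.945 ± 0.144% in unsorted E2 libraries, and 0.704 ± 0.0504% in sorted vehicle and 0.92 ± 0.134% in unsorted vehicle libraries (SD, n = 6 each). The gap was wider in the deeper set. Means in replicates 1 to 3 were 0.713% in sorted and 0.831% in unsorted E2 libraries, and 0.73% and 0.823% in vehicle ones. Those in replicates 4 to 6 were 0.699% and 1.06% with E2, and 0.678% and 1.02% with vehicle. The mean share on factor genes over 6 libraries was 1.22% in sorted E2, 1.28% in unsorted E2, 1.22% in sorted vehicle and 1.28% in unsorted vehicle libraries. In replicates 1 to 3 it was 1.21% in sorted and 1.34% in unsorted E2 libraries, and 1.22% and 1.34% in vehicle ones. In replicates 4 to 6 it was close in all groups, at 1.23% and 1.22% with E2 and 1.23% and 1.23% with vehicle. Prolactin alone took 12% of counts in sorted vehicle and 6.78% in unsorted vehicle libraries. Fold changes below are on TMM-scaled sizes, and with the 10 most counted features left out the vehicle count of lower ribosomal protein genes was also 15.

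Among large subunit genes, 6 of 7 tested were lower in vehicle cells and 6 of 7 in E2-treated cells. Of all features, 31.1% and 31.8% were lower and 32.5% and 33.9% higher in these comparisons. RPL29 (ENSOARG00000006456), a surface protein of the large subunit, had 180 to 270 CPM (median 224) in sorted and 276 to 549 CPM (median 397) in unsorted vehicle libraries. The groups did not overlap, and every sorted library was below its same-numbered unsorted one. In vehicle replicates 1 to 3 it had 202, 180 and 217.9 CPM in sorted and 300.3, 276.1 and 342.5 CPM in unsorted libraries. The gap in CPM was wider in replicates 4 to 6, at 230.4, 255 and 269.7 CPM against 499.5, 452.4 and 549.3 CPM. Over all 6 pairs the log2 fold change of RPL29 was -0.81 ± 0.09 (SE) in vehicle cells (adjusted p = 1.94e-05) and -0.87 ± 0.09 in E2-treated cells. RPL8, a core protein beside the peptidyl transferase centre, was lower by a smaller amount, -0.33 ± 0.08 in vehicle and -0.39 ± 0.08 in E2-treated cells. RPL23A, which lies at the exit of the peptide tunnel, gave -0.22 ± 0.22 and -0.05 ± 0.15 and did not pass in either.

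RPLP1 (ENSOARG00000018666), one of the acidic proteins of the stalk that recruits elongation factors, differed between the depth sets. In replicates 1 to 3 it had 437, 505 and 581 CPM in sorted and 558, 624 and 667 CPM in unsorted vehicle libraries. In replicates 4 to 6 it had 419, 389 and 382 CPM in sorted and 1010, 918 and 1020 CPM in unsorted vehicle libraries. The sorted libraries were lower in both sets, and the gap was wider in the deeper one. The log2 fold change was -0.81 ± 0.21 over all 6 pairs, -0.28 within the shallower set and -1.33 within the deeper.

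Small subunit genes gave 9 of 13 lower and 1 higher in vehicle cells, and 9 lower and 0 higher in E2-treated cells. The shares of all features were those given for the large subunit. RPSA, a protein of the messenger exit site also known as the laminin receptor precursor, had 351 to 459 CPM in sorted and 467 to 733 CPM in unsorted vehicle libraries. The groups did not overlap, and the log2 fold change was -0.57 ± 0.13 in vehicle and -0.60 ± 0.12 in E2-treated cells. The fall was smaller in replicates 1 to 3, at -0.23 in vehicle (adjusted p = 0.0511) and -0.27 in E2-treated cells (adjusted p = 0.0133), than in replicates 4 to 6, at -0.90 and -0.96. RPS18 was lower by 0.41 ± 0.08 in vehicle and by 0.47 ± 0.07 in E2-treated cells on the log2 scale.

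RPS27L, a paralogue of RPS27 that p53 induces in human cells, had 78.4 to 194 CPM in sorted and 93.5 to 163 CPM in unsorted vehicle libraries, with 0.02 ± 0.10 on the log2 scale. RPS21 and RPS7 gave -0.10 ± 0.07 and -0.17 ± 0.07 in vehicle cells, and of these RPS7 passed in E2-treated cells at -0.22 ± 0.07, a call that replicates 4 to 6 alone did not give (-0.17, adjusted p = 0.134).

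The size of the fall differed between the depth sets. In replicates 1 to 3, 6 of 20 ribosomal protein genes were lower and 0 higher in sorted vehicle cells (median log2 fold change -0.21, with 26.6% of 13424 features lower). The count of 6 was thus near the share of all features and does not set these genes apart in that set. In replicates 4 to 6, 16 were lower and 1 was higher (median -0.81, with 34% of 15625 features lower). The difference between sets was tested itself, as an interaction chosen after the data had been seen: in vehicle cells 10 of 20 fell further in replicates 4 to 6 and 0 fell less, where 10.3% of all features passed, 6.87% in that direction. In E2-treated cells 9 did and 0 went the other way, where 7.61% of features passed, 5.42% in that direction. The E2-treated sets gave 8 lower (median -0.16, with 27.6% of all features lower) and 16 lower (median -0.82, with 33.9% lower). Depth and any other difference between the sets cannot be told apart, and the part of the unequal depth of sorted and unsorted libraries in replicates 4 to 6 was not tested.

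RPL10 (ENSOARG00000004976), which completes the large subunit in the cytoplasm, showed how both preparations moved. Sorted E2 libraries had 518, 498 and 510 CPM in replicates 1 to 3, against 587, 547 and 560 CPM in unsorted E2 libraries. In replicates 4 to 6, sorted E2 libraries had 351, 317 and 319 CPM, against 694, 740 and 803 CPM in unsorted E2 libraries. The sorted libraries of the deeper set were the lowest and its unsorted libraries the highest, and the groups did not overlap. The log2 fold change was -0.14 (adjusted p = 0.155) in the first set and -1.22 in the second, and the difference between them was -1.05 ± 0.11 (adjusted p = 0.000114). In vehicle cells the first set gave -0.137 (adjusted p = 0.244). Over all 6 pairs the log2 fold change was -0.67 ± 0.20 in E2-treated and -0.67 ± 0.22 in vehicle cells, and leaving out replicate 4, 5 or 6 took the adjusted p to 0.0593 to 0.0811 and 0.0542 to 0.0761.

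RPS26, RPL34 and RPS25 had the largest fold changes but few reads. RPS26, a protein of the messenger exit channel, had 0.503 to 3.25 CPM in sorted and 2.07 to 3.43 CPM in unsorted vehicle libraries, and RPL34 had 1.07 to 5.81 CPM and 3.95 to 6.24 CPM. Their vehicle log2 fold changes were -1.43 ± 0.43 and -1.37 ± 0.41, with sorted vehicle replicate 2 above its unsorted partner in both genes. In replicates 1 to 3 alone they were -0.19 (adjusted p = 0.694) and -0.30 (adjusted p = 0.501), and RPL34 also missed the threshold without replicate 4, 5 or 6 (adjusted p = 0.0513 to 0.0601). RPS25, which some viral leaders need for initiation, was highest in replicate 3 of every group, at 7.94 CPM in sorted E2, 10.7 in unsorted E2, 7.41 in sorted vehicle and 15.2 in unsorted vehicle cells. In replicates 1 to 3 alone its fold change was -0.64 in vehicle (adjusted p = 0.0736) and -0.15 in E2-treated cells (adjusted p = 0.692), and RPS26 and RPL34 gave -0.05 (adjusted p = 0.927) and -0.52 (adjusted p = 0.168) in E2-treated cells. Ribosomal protein genes have many processed pseudogene copies in mammals, and how the authors counted reads that match several places is not stated, so levels this low are uncertain as levels of the gene.

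**Figure D2:**
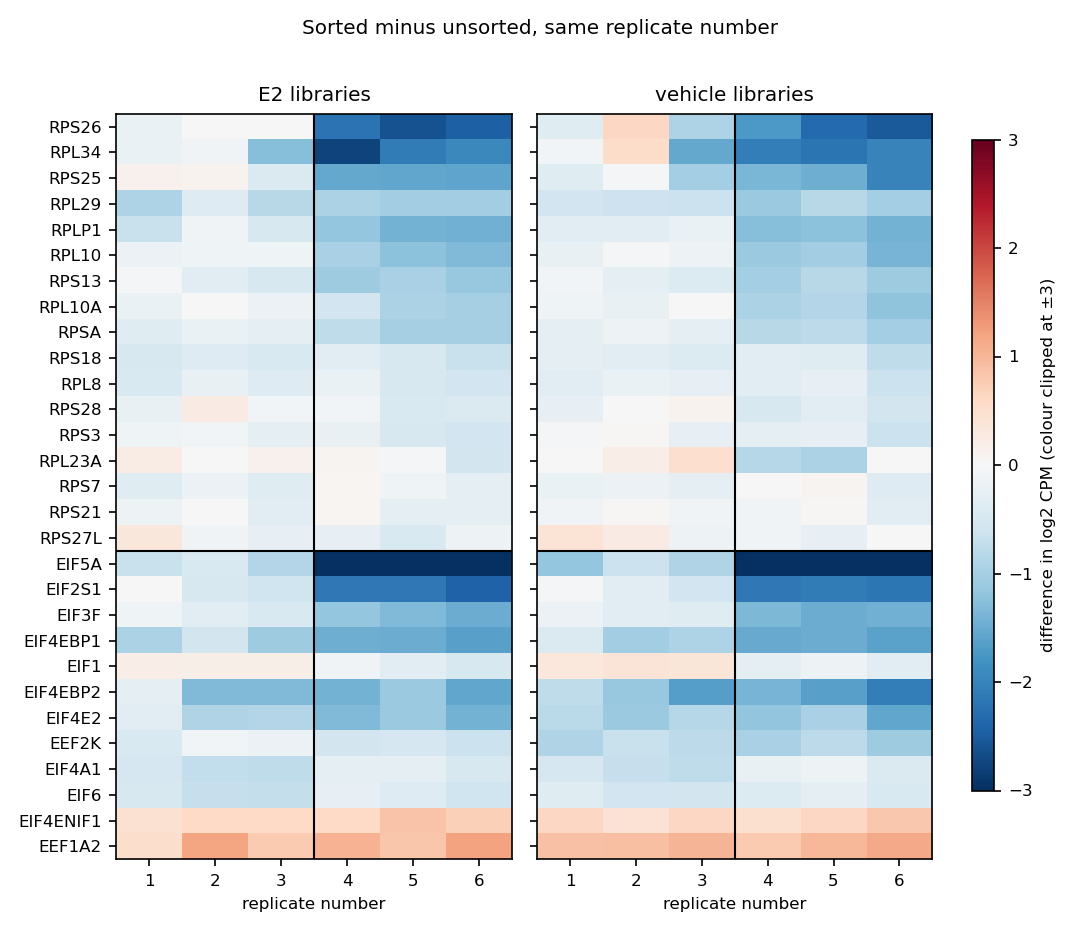
Difference in log2 CPM between the sorted and the unsorted library of the same replicate number, for 17 tested ribosomal protein genes (above the horizontal line) and 12 factor genes chosen after their values were seen. Left, E2-treated pairs and right, vehicle-treated pairs. The vertical line parts the 2 depth sets, and blue, lower in sorted cells, deepens to its right for RPS26, RPL34, RPLP1, RPL10, EIF5A and EIF2S1 in both panels.

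Factor genes moved both ways. Of 46 tested, 6 were higher and 20 lower in sorted than in unsorted vehicle cells, and 6 were higher and 18 lower in E2-treated cells, against the 32.5% higher and 31.1% lower of all features in vehicle cells. Their median log2 fold changes were -0.12 and -0.14. In both treatments 6 were higher and 16 lower (13% and 34.8%), and 0 were called in opposite directions, where of all features 29.2% were higher and 28.4% lower in both. The 6 higher genes were EEF1A2, EIF4ENIF1, EIF1B, EIF1AX, EIF2B4 and EEF2. The count of lower genes in vehicle cells was 14 of 46 without the block, where 25.8% of all features were lower. Without replicate 6 it was 13, and the share of all features was not counted there. The counts by role below stand against 32.5% higher and 31.1% lower of all features in vehicle cells. In E2-treated cells those shares were 33.9% higher and 31.8% lower.

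**Figure D3:**
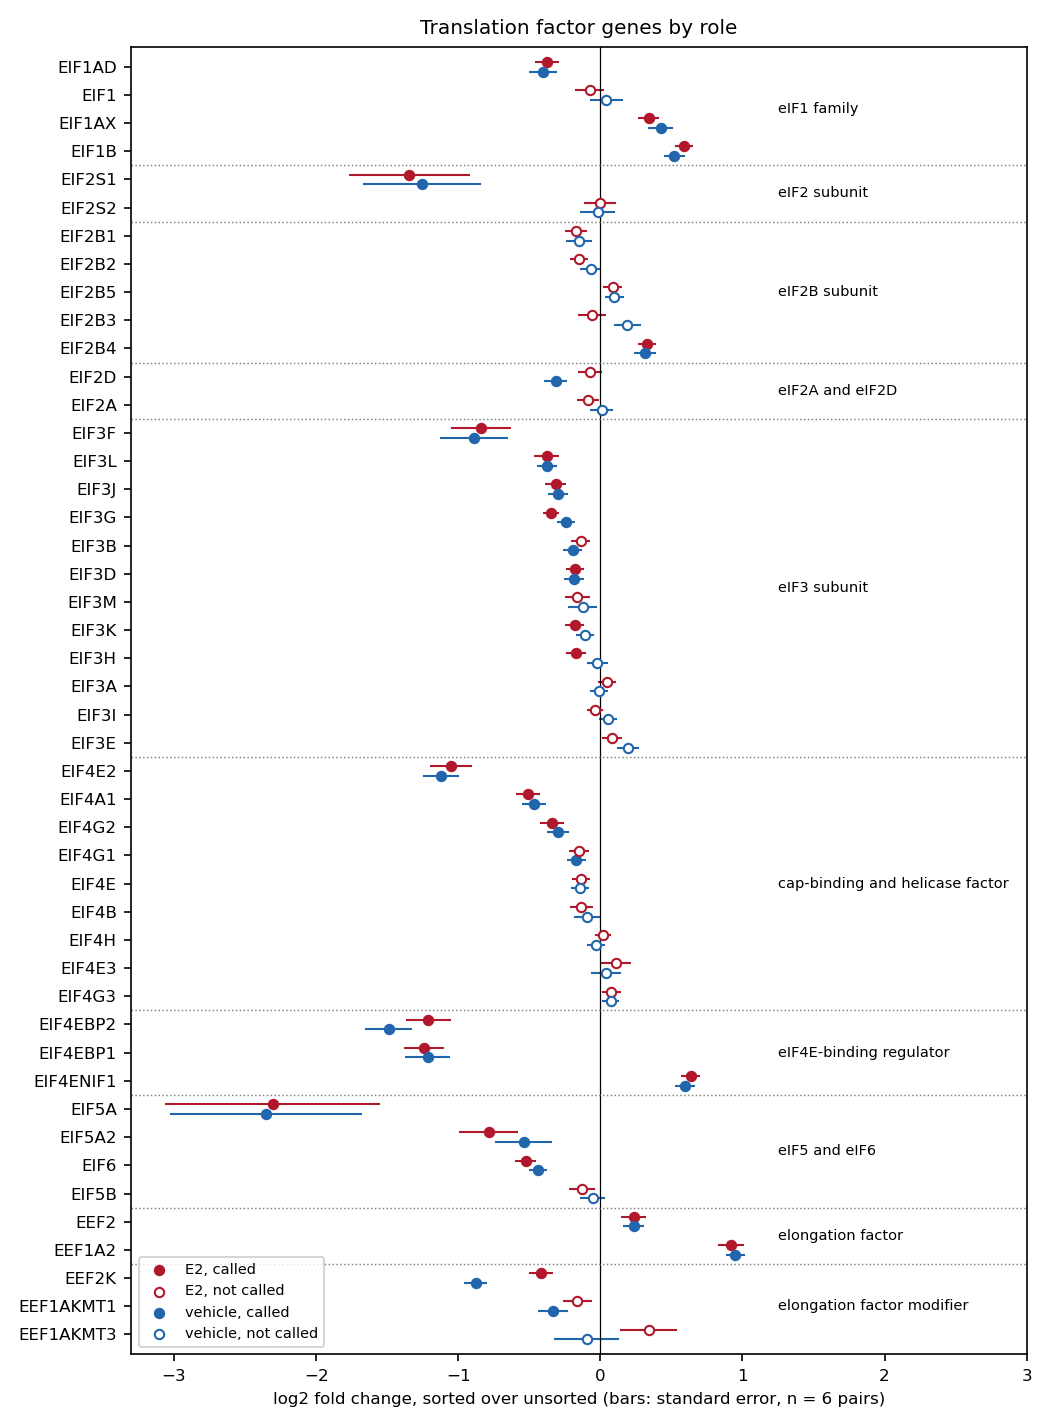
Log2 fold change (horizontal axis, sorted over unsorted) of the 46 tested factor genes, grouped by role, in E2-treated (red) and vehicle-treated (blue) cells. Bars are standard errors over 6 pairs and filled points passed the adjusted threshold. EIF4EBP1, EIF4EBP2 and EIF4E2 lie near or below -1 and EEF1A2 near 0.9 in both treatments.

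Among genes with EIF1 names, EIF1B and EIF1AX were higher and EIF1AD was lower, though in vehicle replicates 1 to 3 EIF1AD missed the threshold (-0.29, adjusted p = 0.102). EIF1B (ENSOARG00000002622), a close paralogue of EIF1, had 63.2 to 93.2 CPM in sorted E2 and 44.2 to 60.7 CPM in unsorted E2 libraries, which did not overlap. Its log2 fold change was 0.59 ± 0.06 in E2-treated and 0.52 ± 0.07 in vehicle cells, with every sorted library above its partner. EIF1, which guards against starting at wrong codons, was higher in vehicle replicates 1 to 3 (0.36, adjusted p = 0.00409) and lower in replicates 4 to 6 (-0.27, adjusted p = 0.00921). Over all 6 vehicle pairs it gave 0.04 ± 0.12. The difference between sets was -0.64 ± 0.10 in vehicle (adjusted p = 0.00103) and -0.51 ± 0.11 in E2-treated cells (adjusted p = 0.0167).

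The start tRNA carrier eIF2 gave unlike results for its 2 measured subunits. EIF2S1 (ENSOARG00000021166), the alpha subunit that stress kinases phosphorylate, had 39.7, 48.2 and 39.1 CPM in sorted vehicle replicates 1 to 3, against 40.9, 60.04 and 58.2 CPM in unsorted ones. In replicates 4 to 6 it had 8.3, 11.03 and 16.3 CPM in sorted and 36.8, 47.3 and 73.6 CPM in unsorted vehicle libraries. The low values were thus those of the 3 deep sorted libraries, and the same held in E2-treated cells, at 8.56, 11.4 and 14.8 CPM. The difference between the sets was -1.87 ± 0.16 in vehicle (adjusted p = 1.85e-06) and -1.90 ± 0.17 in E2-treated cells. Over all pairs the log2 fold change was -1.25 ± 0.42 (adjusted p = 0.0408) in vehicle cells, with adjusted p of 0.0607 without the block and 0.0586 to 0.106 without replicate 3, 4, 5 or 6, and it was -0.31 (adjusted p = 0.0532) in replicates 1 to 3 alone. EIF2S2, the beta subunit, gave -0.02 ± 0.12 in vehicle cells (interval -0.29 to 0.25). Of the eIF2B genes, which reload eIF2 with GTP, 1 of 5 was higher, where 32.5% (vehicle) and 33.9% (E2) of all features were. That gene, EIF2B4, was higher by 0.31 ± 0.08 in vehicle and 0.33 ± 0.06 in E2-treated cells. In vehicle replicates 1 to 3 alone it gave 0.28 (adjusted p = 0.0539).

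Of 12 eIF3 subunit genes, 6 were lower in vehicle and 7 in E2-treated cells, and 0 were higher. Of all features, 31.1% and 31.8% were lower and 32.5% and 33.9% higher. EIF3F (ENSOARG00000015265) had the largest fall, with 69.4, 72.6 and 71.1 CPM in sorted and 79.0, 91.8 and 91.7 CPM in unsorted vehicle replicates 1 to 3. In replicates 4 to 6 it had 30.4, 35.7 and 36.4 CPM in sorted and 78.0, 99.9 and 99.8 CPM in unsorted vehicle libraries. It was lower within each set, by 0.29 and 1.45 on the log2 scale, and the groups did not overlap. EIF3L was lower by 0.37 ± 0.07 and EIF3J by 0.30 ± 0.07 in vehicle cells, while EIF3A, the scaffold of the complex, gave -0.01 ± 0.06. The interval of EIF3A in vehicle cells ran from -0.15 to 0.13.

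Of 3 tested genes for proteins that bind eIF4E, 2 were lower and 1 was higher in both treatments, against the same shares of all features. EIF4EBP1 (ENSOARG00000001124) and EIF4EBP2 (ENSOARG00000006063) encode proteins that hold the cap-binding factor eIF4E until TOR signalling phosphorylates them. EIF4EBP2 had 5.85 to 10.9 CPM (median 6.21) in sorted and 15.7 to 25.2 CPM (median 18.8) in unsorted vehicle libraries. EIF4EBP1 had 12.3 to 17.2 CPM (median 13.3) in sorted and 23.1 to 40.6 CPM (median 34.1) in unsorted vehicle libraries. Neither gene's groups overlapped. Log2 fold changes were -1.49 ± 0.16 for EIF4EBP2 (adjusted p = 1.65e-05) and -1.21 ± 0.16 for EIF4EBP1 (adjusted p = 6.98e-05) in vehicle cells, and -1.21 ± 0.16 and -1.24 ± 0.14 in E2-treated cells, and both genes passed within each depth set. EIF4EBP1 fell further in replicates 4 to 6, by a difference of -0.78 ± 0.19 (adjusted p = 0.016) in vehicle cells. EIF4E2 (ENSOARG00000020823), a cap-binding relative of eIF4E that represses translation, was lower by 1.12 ± 0.13 in vehicle cells, at 6.32 to 8.96 CPM in sorted and 13.7 to 20 CPM in unsorted libraries. EIF4E itself, at -0.14 ± 0.06, did not pass (adjusted p = 0.0697).

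EIF4ENIF1 (ENSOARG00000010610), which carries eIF4E into the nucleus and to RNA granules, was the higher one. It had 88.7 to 106 CPM in sorted E2 and 58 to 69.7 CPM in unsorted E2 libraries, and 95.7 to 115 CPM in sorted vehicle and 62.2 to 73 CPM in unsorted vehicle libraries. Groups overlapped in neither treatment, and the log2 fold change was 0.64 ± 0.07 in E2-treated and 0.59 ± 0.07 in vehicle cells, close to this in each depth set. The helicase gene EIF4A1 was lower by 0.47 ± 0.09 in vehicle and 0.51 ± 0.09 in E2-treated cells. Of the scaffold genes, EIF4G2 was lower by 0.30 ± 0.08 in vehicle cells (adjusted p = 0.00626, 0.0644 without the block), and in replicates 4 to 6 alone the call was lost (-0.17, adjusted p = 0.0938). EIF4G3 gave 0.07 ± 0.06, and EIF4G1 gave -0.17 ± 0.07 (adjusted p = 0.0422). The EIF4G1 call was lost with RLE size factors, without the block or without any 1 replicate but number 5. It was also lost in replicates 1 to 3 alone (-0.239, adjusted p = 0.0513) and in replicates 4 to 6 alone (-0.105, adjusted p = 0.275).

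EIF5A (ENSOARG00000011879), the hypusine-bearing factor that helps ribosomes past difficult codons and in termination, had the largest fall of all members. Sorted vehicle libraries had 11.1, 15.9 and 14.0 CPM in replicates 1 to 3 and 1.92, 2.39 and 2.18 CPM in replicates 4 to 6. Unsorted vehicle libraries had 24.9, 25.03 and 26.2 CPM in replicates 1 to 3 and 27.3, 29.0 and 33.5 CPM in replicates 4 to 6. The groups did not overlap, and the 3 deep sorted libraries stood far below the others, as they did in E2-treated cells at 1.91, 2.01 and 2.21 CPM. Log2 fold changes were -0.90 in replicates 1 to 3 and -3.81 in replicates 4 to 6, each past the threshold, and the difference was -2.93 ± 0.21 (adjusted p = 2.97e-07). Over all pairs it was -2.35 ± 0.68 (adjusted p = 0.0265, and 0.0654 to 0.0735 without replicate 4, 5 or 6). EIF6, which keeps the large subunit from joining too early, was lower by 0.44 ± 0.06 in vehicle and 0.52 ± 0.07 in E2-treated cells, steadily over both sets. EIF5A2, a paralogue of EIF5A, had 1.88 to 2.98 CPM in sorted and 2.58 to 6.96 CPM in unsorted vehicle libraries, and its vehicle call was lost without the block (adjusted p = 0.0645), in replicates 4 to 6 alone (-0.31, adjusted p = 0.218) and without replicate 1, 2, 3 or 6 (adjusted p = 0.0605 to 0.104).

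Both tested elongation factor genes were called higher, EEF1A2 by the larger amount. EEF1A2 (ENSOARG00000011052), the form of the tRNA-delivering factor that neurons and muscle use in mice and humans, had 182 to 388 CPM (median 229) in sorted E2 and 106 to 169 CPM in unsorted E2 libraries. In vehicle cells it had 191 to 377 CPM in sorted and 94 to 171 CPM in unsorted libraries, and groups overlapped in neither treatment. Its log2 fold change was 0.92 ± 0.09 in E2-treated and 0.95 ± 0.07 in vehicle cells (adjusted p = 1.08e-05 and 6.9e-07), and 0.93 and 0.96 in the vehicle depth sets. EEF2, which moves the ribosome along the messenger, was higher by 0.24 ± 0.07 in vehicle and 0.23 ± 0.09 in E2-treated cells, calls that were lost without the block (adjusted p = 0.0673 and 0.0816), in vehicle cells without replicate 2, 4 or 5 (0.0524 to 0.0595), and in E2-treated cells without any 1 of replicates 2 to 6 (0.0611 to 0.107). They were also lost in replicates 1 to 3 alone (adjusted p = 0.0808 in vehicle and 0.13 in E2-treated cells) and, in E2-treated cells, in replicates 4 to 6 alone (0.0583). Of the 3 genes for enzymes that modify elongation factors, EEF2K was lower in both treatments (values below), EEF1AKMT1, a lysine methyltransferase of eEF1A, was lower in vehicle cells (-0.34 ± 0.11) but in neither depth set alone (adjusted p = 0.106 and 0.051), and EEF1AKMT3 passed in neither.

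**Figure D4:**
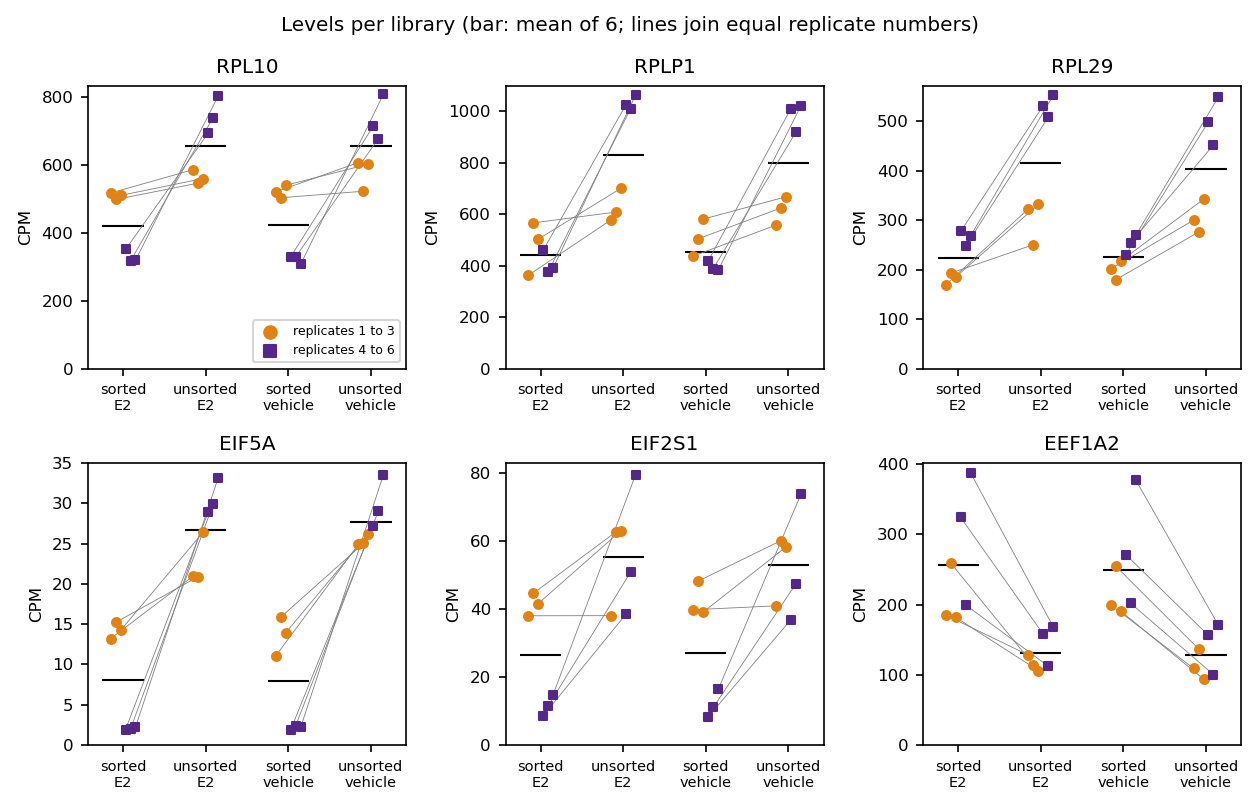
CPM of 6 genes in each library, for sorted and unsorted E2 and sorted and unsorted vehicle cells. Orange circles are replicates 1 to 3, purple squares replicates 4 to 6, bars the mean of 6, and grey lines join equal replicate numbers. For RPL10, RPLP1, RPL29, EIF5A and EIF2S1 the lines between purple squares are steeper than those between orange circles. RPL29 lies lower and EEF1A2 higher in sorted cells.

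E2 moved 1 of these 66 tested genes. In sorted cells 0 of 20 ribosomal protein genes passed, 0 had an unadjusted p under 0.05, and DESeq2 called 0, where edgeR called 13.2% of all 14334 features and DESeq2 9.58%. In unsorted cells 0 of 20 passed, 2 had an unadjusted p under 0.05 (RPL34 and RPS27L) and DESeq2 called 0, where edgeR called 5.24% of 15083 features and DESeq2 3.89%. Median log2 fold changes of the ribosomal protein genes were -0.00259 in sorted and 0.04 in unsorted cells. A p above the threshold does not show that a gene held still, so intervals are given: in sorted cells the 95% interval lay within 0.25 log2 units of 0 for 16 of 20 ribosomal protein and 38 of 46 factor genes. In unsorted cells it did so for 17 of 20 and 44 of 46. The widest sorted interval was that of RPS26, which reached 0.72 log2 units from 0.

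The gene that passed was EEF2K (ENSOARG00000015653), the calcium- and calmodulin-activated kinase that phosphorylates eEF2 and so slows elongation. In sorted cells it had 44.5, 52.7, 49.7, 41.6, 42.8 and 43.5 CPM with E2, against 33.6, 38.6, 37.9, 32.6, 33.2 and 32.3 CPM with vehicle, in the order of replicates 1 to 6. The groups did not overlap, and all 6 E2 libraries were above their same-numbered vehicle ones. EEF2K rose by 0.40 ± 0.05 on the log2 scale (adjusted p = 1.66e-05, where 7.03% of all features rose), and by 0.42 and 0.37 within the shallower and the deeper set, each past the threshold. The fit without the block gave 0.40 with an adjusted p of 0.0508, where it called 1.37% of features, and the authors' deposited table lists 0.42 with an adjusted p of 0.257. In total, 9 of 46 factor genes had an unadjusted p under 0.05, and the next smallest adjusted p was 0.0509, for EIF1B at 0.14 ± 0.04. The share of all features at that unadjusted threshold was not counted, here or beside the other unadjusted counts. Since 13.2% of all features passed even the adjusted threshold here, the 9 are not read as a response of factor genes.

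In unsorted cells EEF2K had 55.4 to 67.8 CPM with E2 and 57.7 to 68.1 CPM with vehicle, which overlapped, and a log2 fold change of -0.05 ± 0.05. Here 0 of 46 factor genes passed, 4 had an unadjusted p under 0.05 and DESeq2 called 0. The difference of the E2 effects, sorted minus unsorted, was 0.46 ± 0.10 for EEF2K (adjusted p = 0.0326) and had this sign in 6 of 6 replicate numbers, where 0.463% of all 15134 features passed, 0.33% as higher. DESeq2 gave 0.44 (adjusted p = 0.00462) and called 0.881% of features. The edgeR call did not hold without the block (adjusted p = 0.253, with 0.0264% of features called) or without the filter on low counts (adjusted p = 0.1). It was also lost in replicates 1 to 3 alone (adjusted p = 0.576), in replicates 4 to 6 alone (adjusted p = 0.303) and without any 1 of the 6 replicates (adjusted p = 0.0732 to 0.251). For ribosomal protein genes the interaction gave 0 of 20, with 0 at an unadjusted p under 0.05 and 0 by DESeq2. Its intervals were wide: they lay within 0.25 log2 units of 0 for 4 of 20 genes, and that of RPS26 reached 1.33. The test therefore does not show that the E2 effects were equal in the 2 preparations.

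EEF2K was lower in sorted than in unsorted cells with either treatment, by 0.42 ± 0.09 with E2 and by 0.88 ± 0.08 with vehicle on the log2 scale, although with E2 it missed the threshold in replicates 1 to 3 alone (-0.23, adjusted p = 0.108). These comparisons share libraries with the E2 comparisons. Markers of several cell types also moved with E2 in sorted cells. Of the 3 markers of dividing cells TOP2A rose by 0.91 ± 0.07, while CDK1 (adjusted p = 0.991) and AURKA (adjusted p = 0.185) did not pass. The gonadotrope marker GNRHR rose by 2.02 ± 0.18 and FSHB fell by 0.84 ± 0.06, POU1F1 and TSHB of other hormone cells fell by 0.76 ± 0.05 and 0.30 ± 0.05, and the folliculostellate and stem cell marker ALDH1A1 fell by 0.15 ± 0.03. The 3 dividing-cell markers summed to 39.8 to 57.9 CPM in sorted E2 and 23.9 to 41.1 CPM in sorted vehicle libraries. In unsorted libraries they summed to 79.4 to 139 CPM with E2 and 76.9 to 135 CPM with vehicle. Their part in the EEF2K result was not tested.

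**Figure D5:**
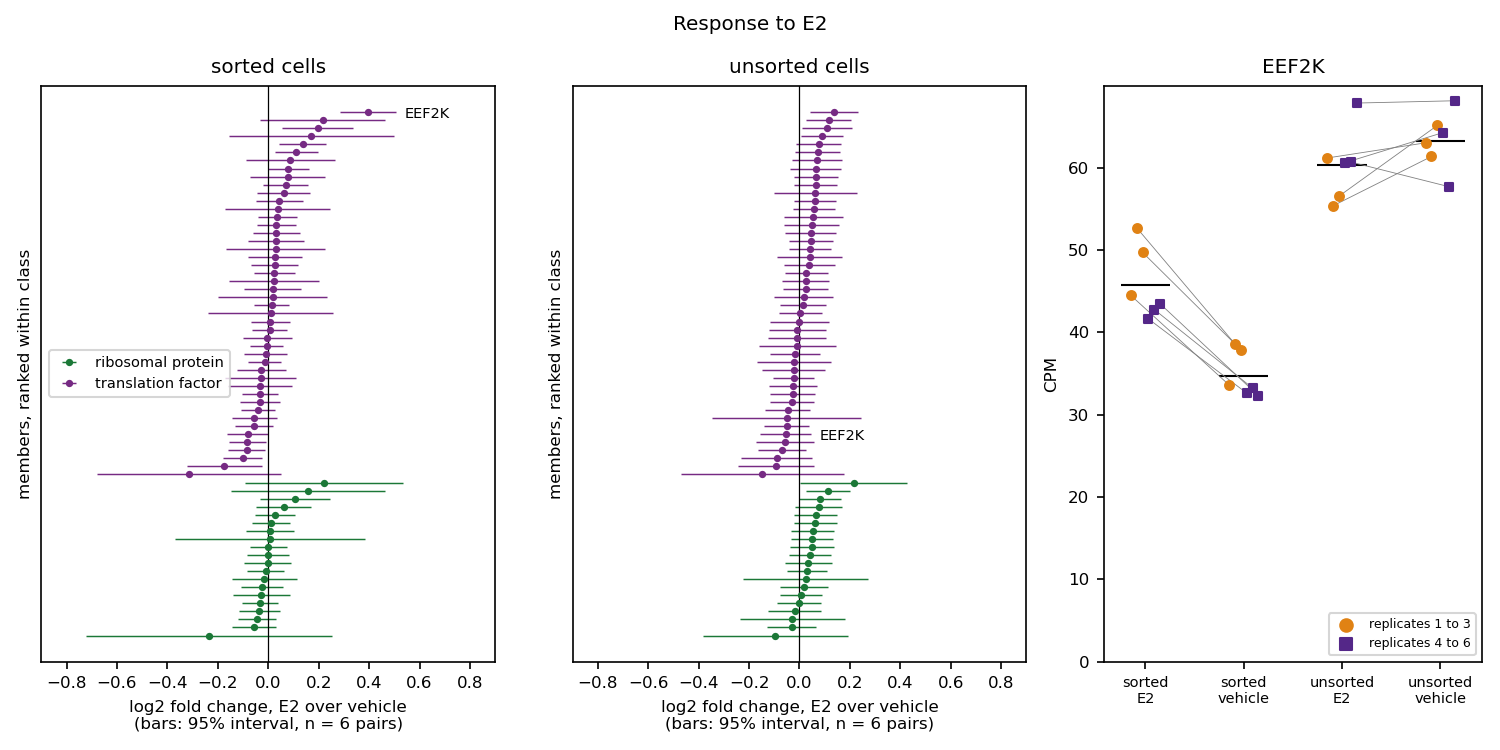
Left and middle, log2 fold change of E2 over vehicle with its 95% interval for the 20 ribosomal protein (green) and 46 factor genes (purple), ranked within each class, in sorted and in unsorted cells. Right, EEF2K in CPM per library, with replicates 1 to 3 in orange and 4 to 6 in purple, bars for means and lines joining replicate numbers. EEF2K stands at 0.40 in sorted cells and -0.05 in unsorted cells.

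The rest of the pathway was read from lists in the same fits. Ribosome biogenesis factors were mostly lower in sorted vehicle cells, 39 of 64 (against 31.1% of all features), with 4 higher (against 32.5%) and a median log2 fold change of -0.34. In E2-treated cells 40 were lower and 5 higher, against 31.8% and 33.9% of all features. Examples in vehicle cells were DDX21, a nucleolar helicase, at -1.15 ± 0.08, and NOL6, part of the small subunit processome, at -1.01 ± 0.08, while MDN1, a remodelling ATPase of the large subunit precursor, was higher by 0.85 ± 0.16. By vehicle depth set, 42 were lower (median -0.43) in the shallower set, where 26.6% of all features were, and 34 (median -0.24) in the deeper, where 34% were. The set interaction in vehicle cells was positive for 7 biogenesis genes (3.46% of all features) and negative for 0 (6.87% of all features). Mitochondrial ribosomal protein genes gave 28 of 65 lower and 4 higher, with a median of -0.18. RNA polymerase I genes gave 3 lower and 3 higher of 14. These counts, and those of the lists below for sorted vehicle cells, stand against the same 31.1% lower and 32.5% higher of all features.

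The regulators of eIF2 were listed together with the transcription factor gene ATF4. Of these 8 genes, 4 were higher in sorted vehicle cells and 0 lower, with 6 higher in E2-treated cells. The kinase genes EIF2AK3 (PERK) and EIF2AK4 (GCN2) were higher by 0.50 ± 0.07 and 0.75 ± 0.09, and PPP1R15A, the stress-induced phosphatase subunit that reverses their action, by 0.91 ± 0.07. With E2, 4 of the 8 passed in sorted cells, where 6.2% of all features fell and 7.03% rose. The 3 genes just named fell, PPP1R15A by 0.26 ± 0.05, EIF2AK4 by 0.22 ± 0.05 and EIF2AK3 by 0.13 ± 0.04 on the log2 scale, and GCN1, an activator of GCN2, rose by 0.13 ± 0.04 (adjusted p = 0.028). In unsorted cells 0 of the 8 passed and 1 had an unadjusted p under 0.05, and the interaction called 0 of 8. Of 18 TOR pathway genes, 5 were lower, a share near that of all features, and 2 higher in sorted vehicle cells. LARP1, which binds terminal pyrimidine tracts, was lower by 0.35 ± 0.06, and AKT1S1, a TOR complex inhibitor, by 0.87 ± 0.21, while TSC2, which restrains TOR signalling, was higher by 0.40 ± 0.07. In sorted cells E2 raised 2 of the 18, MKNK1, a kinase of eIF4E, by 0.83 ± 0.10 and RPS6KA1, a kinase downstream of ERK, by 0.30 ± 0.05, and lowered PDCD4, an inhibitor of the eIF4A helicase, by 0.17 ± 0.04.

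Aminoacyl-tRNA synthetase genes gave 5 higher and 5 lower of 18 in sorted vehicle cells, both near the share of all features. The cytosolic serine, methionine and alanine enzymes SARS, MARS and AARS were higher by 0.55 ± 0.06, 0.52 ± 0.06 and 0.47 ± 0.06, and the tyrosine enzyme YARS was lower by 0.64 ± 0.16. Termination and poly(A)-binding genes gave 4 higher and 4 lower of 13, again near those shares, with GSPT2 higher by 0.74 ± 0.07 and PABPC4 lower by 1.10 ± 0.09. Of 5 further ribosome-bound or TOP messenger genes, 3 were lower, among them RACK1, a scaffold on the small subunit, by 0.37 ± 0.11, and VIM by 2.08 ± 0.10. VIM is an intermediate filament gene that fibroblasts express strongly.

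The authors' deposited table of sorted against unsorted vehicle cells lists 21 ribosomal protein and 46 factor genes. At its adjusted p under 0.05, and with its sign turned so that it runs sorted over unsorted, the authors' deposited table has 12 ribosomal protein genes lower and 0 higher, and 11 factor genes lower and 4 higher. The 4 were EEF1A2, EIF4ENIF1, EIF1B and EIF1AX. In the authors' deposited tables for E2, 0 members pass in sorted or in unsorted cells.

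Outside these counts, 4 members had too few reads to be tested. RPL3L, the striated muscle paralogue of RPL3, had 106 reads over all 24 libraries, with at most 16 in one. RPL10L, the testis paralogue of RPL10 in mice and humans, had 21 reads, the feature named EEF1D had 11, and EIF4E1B, an oocyte form of eIF4E, had 1.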

How the data were processed

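The deposited tables hold raw counts, whole numbers of reads per Ensembl sheep gene in 1 column per library; per the submitters' processing notes, they were counted with featureCounts 1.5.1. The aligner, genome build, strand setting and treatment of multiply mapping reads are not stated in these sources. No coordinates or sequences are printed. The deposited log2 fold changes, log2 CPM, p-values and signed fold-change scores of the authors are, per the file headers, from their own edgeR comparisons, and were used only where the authors' table is named. Vehicle libraries stand in 2 count tables, and 0 values differed between the copies.

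Per the labels, cultures were infected 24 hours after dispersal and treated 3 days later, and each library took 500 ng total RNA. Each comparison was fitted over all features with edgeR 4.0.16 in R 4.3.3 (TMM, filterByExpr on the groups compared, robust glmQLFit, 2-sided quasi-likelihood F-test, replicate number as a block, Benjamini-Hochberg over all features tested, threshold 0.05). Standard errors are the log2 fold change over the square root of F, and intervals cover 95%. Levels are CPM on TMM-scaled sizes over all 24 libraries, and gene lengths were not used, so levels are not compared between genes. Counts cover reads, not independent molecules.

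The block was used because the rule for these genes asks for pairing by number. In libraries centred by group, same-numbered ones correlated at r = 0.29 to 0.859 (36 pairs, median 0.457). Those of other numbers correlated at -0.0422 to 0.512 within a depth set (median 0.142) and at -0.607 to -0.0954 across sets. Same-numbered libraries were thus more alike by the median, but the ranges within a depth set overlapped. No label says what libraries of equal number share.

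The members, gene lists and tests were chosen with earlier results of these data known. Genes named are 20 fixed members with a feature, the up to 6 largest called rises and falls of each class in each comparison with a group mean of 5 CPM or more, and any called in the interaction, 32 in all; other members named were chosen after their values were seen. Alternatives were the fit without the block, RLE size factors, total counts, leaving out the 10 most counted features, 2 other filters, DESeq2 1.42.0, 1 fit of all 24 libraries, each depth set, and leaving out each replicate number. Some genes enter the counts and medians but are not reported here one by one.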

Additional observations from a re-analysis of the deposited data

Results flagged for a closer look

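In 136 groups of 6 libraries examined, 5 had 1 library apart from its group by Dixon's criterion, where chance gives about 1 in 20. EIF4EBP1 had 17.4 CPM in sorted E2 replicate 2, against 13 to 14.1 CPM in the other sorted E2 libraries. RPS25 had 7.94 CPM in sorted E2 replicate 3, against 2.01 to 3.32 CPM in the others, and 7.41 CPM in sorted vehicle replicate 3, against 1.82 to 3.07 CPM. EIF4ENIF1 had 115 CPM in sorted vehicle replicate 6, against 95.7 to 99.5 CPM, and EIF5A2 had 6.96 CPM in unsorted vehicle replicate 3, against 2.58 to 4.19 CPM. The E2 effect on EEF2K differed between sorted and unsorted cells, by 0.46 on the log2 scale, in a test of the difference itself (edgeR adjusted p = 0.0326, and 0.0732 to 0.251 with any 1 replicate number left out).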

How the results depend on the processing

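Over 831 refits of 52 single-gene results under 16 alternatives, 735 kept direction and side of the threshold, 96 kept the direction only and 0 reversed. In replicates 1 to 3 only, sorted vehicle cells had 0 ribosomal protein genes higher and 6 lower, where 26.6% of all features were lower. Sorted E2 cells had 8 lower with a median of -0.156 in that set, where 27.6% of all features were lower. With DESeq2, and with 1 fit of all 24 libraries, 1 ribosomal protein gene was higher in sorted E2 cells. Leaving out 1 replicate number gave 9 to 15 (vehicle) and 10 to 17 (E2) lower ribosomal protein genes, and 13 to 17 and 13 to 19 lower factor genes. The share of all features was not counted in those fits, so these counts are not read as a result about the members. For E2 in sorted cells, factor genes called higher were 3 with total counts, 2 in replicates 1 to 3 only, and 1 to 2 with 1 replicate number left out. For the difference of E2 effects they were 0 without the filter on low counts, 0 in each depth set and 0 to 0 with 1 replicate number left out. The share of all features was not counted in these E2 refits either. The cause of these changes was not tested. Without the replicate block, lower ribosomal protein genes numbered 13 (vehicle) and 11 (E2) and lower factor genes 14 and 15. Of all features, 25.8% (vehicle) and 26% (E2) were lower in those fits. Factor genes moved by E2 without the block were 0 in sorted cells and 0 in the interaction. Over all features 1.37% were called for E2 in sorted cells, where the block gave 13.2%, and 0.0264% in the interaction. The low-count genes RPS26, RPL34 and RPS25 had few reads in sorted libraries of both depth sets. In sorted vehicle replicates 1 to 3 they had 14, 19 and 9 (RPS26), 24, 34 and 12 (RPL34) and 11, 18 and 43 reads (RPS25). In replicates 4 to 6 they had 16, 12 and 12, 21, 22 and 32, and 54, 39 and 60 reads, in the same order of genes.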
